A study of Mus musculus with 6 samples.

Results

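Transcripts of 10 genes of the angiopoietin and vascular endothelial growth factor (VEGF) families were followed in cultured mouse fibroblastic reticular cells (FRCs), a cell line of the stroma that forms the lymph node scaffold. The genes were taken by symbol, with earlier results of these data known. They are Angpt1, Angpt2, Tek, Angptl2, Angptl4, Vegfa, Vegfb, Vegfc, Pgf and Flt1, 10 of the 55367 gene symbols in the deposited counts, and all 10 were among the 15055 genes with enough reads to test. The FRCs were kept for 96 h, with fresh medium every 48 h, in medium conditioned for 24 h by 4T1 cells, by 67NR cells or, as the control, by FRCs themselves, each supplemented with 2% serum. 4T1 (metastatic) and 67NR (non-metastatic) are lines derived from the same mouse mammary tumour. Each medium had 2 libraries, 6 in all, and no group received unconditioned medium. Nothing in the labels says whether the 2 libraries of a medium came from separate cultures, so each p-value reflects the spread of these samples alone, which may be technical. The labels used here give no strain, sex or age for the line.

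The libraries held 14471244 and 18214700 counts in 4T1 medium, 21797578 and 20886242 in 67NR medium, and 19262738 and 13581510 in control medium. Levels are given in CPM, which are counts set to a common depth by library totals adjusted with edgeR's TMM factors, and 1 count stood for 0.0463 to 0.0743 CPM. Intervals for counts cover counting error only. In every medium the 2 libraries differed by more than counting noise, with a chi-square per degree of freedom of 8.21 in 4T1, 4.26 in 67NR and 4.19 in control medium, so none was a copy of another. In these bulk samples, fewer cells of a type and less RNA per cell cannot be told apart.

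VEGF ligands bind receptor tyrosine kinases on blood and lymphatic endothelium and drive vessel growth and permeability. Angiopoietins bind the receptor TIE2, the product of Tek: angiopoietin 1 activates it and steadies vessels, while angiopoietin 2 mostly opposes this and loosens them. Stromal cells such as FRCs are known as a source of VEGF for the vessels of lymph nodes. The angiopoietin-like proteins share a fold with the angiopoietins but do not bind TIE2.

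In 4T1 medium Angptl4, Vegfc and Vegfa rose against control medium, and Angptl2 rose slightly, whereas Angpt2, Angpt1, Tek, Pgf and Flt1 fell, and Vegfb fell slightly. In 67NR medium Angpt1 and Angpt2 rose and so, weakly, did Angptl4. Of the 10 genes, 4 were higher and 6 lower in 4T1 than in control medium by edgeR's quasi-likelihood test at a Benjamini-Hochberg adjusted p under 0.05, against 19.9% of all tested genes higher and 19.2% lower, 39.1% in either direction. For 67NR against control 3 of the 10 were higher and none lower, against 13.0% and 14.6% of all tested genes, 27.6% together. With DESeq2 the counts for this comparison were 2 higher and none lower, and of the 7 genes that did not pass in edgeR none had an unadjusted p under 0.05. For 4T1 against 67NR the same 4 genes were higher and the same 6 lower as for 4T1 against control, against 23.5% and 19.9% of all tested genes, 43.4% together. The tumour media share the control libraries, and the comparisons with 4T1 share the 4T1 libraries, so these counts are not independent of each other. Over the 10 genes the median log2 fold change was -0.85, 0.08 and -0.72 for 4T1 against control, 67NR against control and 4T1 against 67NR, beside medians of 0.01, 0.0032 and 0.03 over all tested genes.

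**Figure D1:**
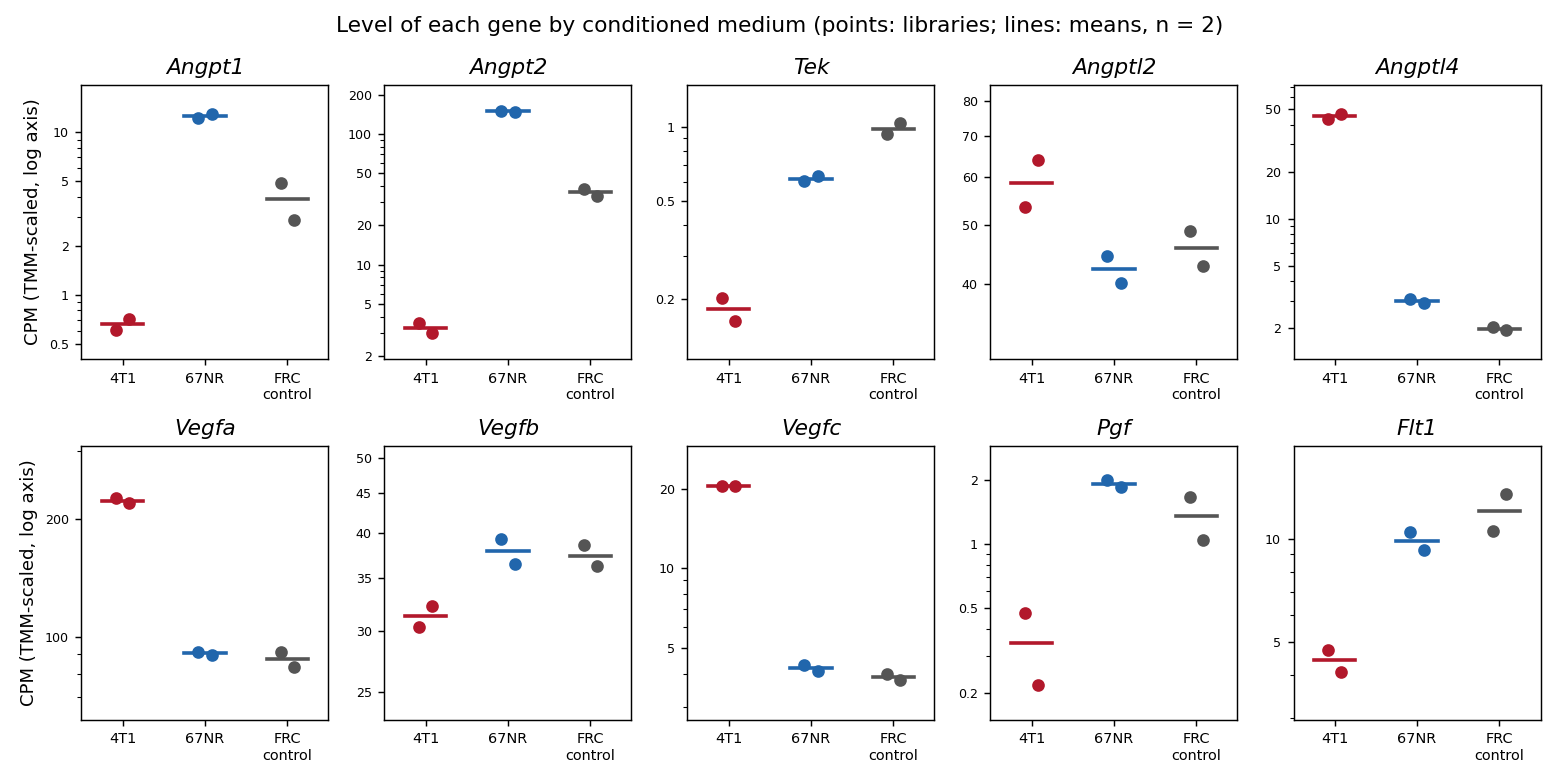
Level of each of the 10 genes in CPM (TMM-scaled, log axis) in 4T1, 67NR and FRC control medium, where each point is a library and each line the mean of 2. The 4T1 libraries lie outside the range of the other 4 libraries for all 10 genes. The 67NR libraries stand above both other media for Angpt1, Angpt2 and Pgf, and Pgf did not pass for 67NR against control. How many of all tested genes lie apart in this way was not counted. Of all tested genes, 39.1% passed the test for 4T1 against control and 43.4% for 4T1 against 67NR.

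Among the angiopoietin ligands, Angpt2 had the widest range. Angpt2 (GRCm38, chromosome 8, 18690263 to 18741562, minus strand) was at 3.58 and 2.996 CPM in 4T1 medium, 151 and 149 CPM in 67NR medium and 38.1 and 33.9 CPM in control medium. The 3 media did not overlap, with 67NR highest and 4T1 lowest. Angpt2 was 11.1-fold lower in 4T1 than in control medium (log2 -3.47, standard error (SE) 0.12, edgeR quasi-likelihood adjusted p = 2e-10) and 4.14-fold higher in 67NR than in control medium (log2 2.05, SE 0.08, edgeR quasi-likelihood adjusted p = 1.97e-08). Between the tumour media it was 45.8-fold lower in 4T1 than in 67NR medium (log2 -5.52, SE 0.11). The gene lies inside Mcph1 on the opposite strand and shares no exon base with it.

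Angpt1, which encodes the activating ligand of TIE2 (chromosome 15, 42424723 to 42676977, minus strand), followed the same order at a lower level. It was at 0.608 and 0.708 CPM in 4T1 medium, 12.1 and 12.9 CPM in 67NR medium and 4.88 and 2.90 CPM in control medium. The control libraries stood apart from each other by more than those of either tumour medium, yet no media overlapped. The log2 fold change was -2.59 (SE 0.33, edgeR quasi-likelihood adjusted p = 3.96e-05) for 4T1 against control, 1.64 (SE 0.19, edgeR quasi-likelihood adjusted p = 3.24e-05) for 67NR against control and -4.22 (SE 0.27) for 4T1 against 67NR. The 4T1 level rests on 22 counts over both libraries, an exact 95% Poisson interval of 0.416 to 1.00 CPM. An antisense gene, Gm17473, covers 14.2% of the exon length of Angpt1 and had 0 counts in all 6 libraries.

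The proportion between the 2 ligands also varied. Angpt2 had 5.89 and 4.23 counts for each Angpt1 count in 4T1 medium, 12.4 and 11.5 in 67NR medium and 7.81 and 11.7 in control medium. The 4T1 ratios lie below those of the other 4 libraries, but the exact 95% binomial interval of 4T1 replicate 1, 2.88 to 13.6, takes in both control ratios, and that of replicate 2, 2.28 to 8.44, takes in 1 of them. The 67NR and control ratios overlap.

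Tek (chromosome 4, 94739289 to 94874976, plus strand) encodes TIE2 itself, a receptor known from endothelial and blood stem cells. It had few counts in every library, with 3 and 3 counts in 4T1 medium, 13 and 13 in 67NR medium and 18 and 14 in control medium. These correspond to 0.203 and 0.163 CPM in 4T1 medium, 0.602 and 0.633 CPM in 67NR medium and 0.934 and 1.04 CPM in control medium. The 4T1 libraries were lowest and the control libraries highest. Tek fell in 4T1 against control medium (log2 -2.39, SE 0.52, edgeR quasi-likelihood adjusted p = 0.00279), and 67NR against control did not pass (log2 -0.66, 95% interval -1.50 to 0.17). Its fall in 4T1 against 67NR medium (log2 -1.73, SE 0.55, edgeR quasi-likelihood adjusted p = 0.022) ended without either 4T1 library, without either 67NR library and with DESeq2, at adjusted p = 0.0683 to 0.13 (range over the alternatives 0.0176 to 0.13).

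Of the angiopoietin-like genes, Angptl4 rose furthest of the 10. Angptl4 (chromosome 17, 33773750 to 33781830, minus strand) encodes a secreted inhibitor of lipoprotein lipase that is induced by fatty acids through PPAR receptors and by hypoxia. It was at 43.6 and 47.1 CPM in 4T1 medium, 3.06 and 2.87 CPM in 67NR medium and 2.02 and 1.93 CPM in control medium. The 4T1 libraries were far above the other 4, and the 67NR libraries slightly above control. Angptl4 was 22.8-fold higher in 4T1 than in control medium (log2 4.51, SE 0.13, edgeR quasi-likelihood adjusted p = 3.44e-11) and 15.3-fold higher in 4T1 than in 67NR medium (log2 3.93, SE 0.12). The 1.49-fold rise in 67NR against control medium (log2 0.58, SE 0.19, edgeR quasi-likelihood adjusted p = 0.0412) passed narrowly. It ended without either 67NR or either control library and in 4 other alternatives, which leaves 7 of 15 where it passed, with adjusted p = 0.0361 to 0.179 over all of them.

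Angptl2 (chromosome 2, 33216069 to 33247717, plus strand), which encodes a secreted glycoprotein known from inflamed adipose tissue, changed little. It was at 53.5 and 63.8 CPM in 4T1 medium, 44.6 and 40.1 CPM in 67NR medium and 49.0 and 42.9 CPM in control medium. The 4T1 libraries were highest, and 67NR and control overlapped. Angptl2 rose in 4T1 against control medium (log2 0.35, SE 0.10, edgeR quasi-likelihood adjusted p = 0.0139) and against 67NR medium (log2 0.47, SE 0.10), while 67NR against control did not pass (log2 -0.12, 95% interval -0.34 to 0.10). The first call ended without 4T1 replicate 2 (adjusted p = 0.113) and without control replicate 2 (adjusted p = 0.137), in a range of 0.00103 to 0.137 over the alternatives. The gene lies inside Ralgps1 on the opposite strand, with no exon base in common.

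Of the VEGF ligands, Vegfa encodes the main driver of blood vessel growth and Vegfc the ligand of lymphatic growth. Vegfa (chromosome 17, 46016993 to 46032369, minus strand) was at 227 and 220 CPM in 4T1 medium, 91.1 and 89.9 CPM in 67NR medium and 91.4 and 83.5 CPM in control medium. Both 4T1 libraries stood above the other 4, and 67NR and control overlapped. Vegfa was 2.55-fold higher in 4T1 than in control medium (log2 1.35, SE 0.07, edgeR quasi-likelihood adjusted p = 6.03e-09) and 2.47-fold higher in 4T1 than in 67NR medium (log2 1.303, SE 0.07). For 67NR against control it did not pass (log2 0.05, 95% interval -0.10 to 0.20). Gene counts do not separate the 13 annotated Vegfa transcripts, and known protein forms of VEGF-A differ in how tightly they bind matrix.

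Vegfc (chromosome 8, 54077606 to 54187096, plus strand) was at 20.5 CPM in both 4T1 libraries, 4.31 and 4.09 CPM in 67NR medium and 4.00 and 3.79 CPM in control medium. Both 4T1 libraries lay far above the other 4, and 67NR lay slightly above control without overlap. Vegfc was 5.25-fold higher in 4T1 than in control medium (log2 2.39, SE 0.13, edgeR quasi-likelihood adjusted p = 1.61e-08) and 4.88-fold higher in 4T1 than in 67NR medium (log2 2.29, SE 0.12). For 67NR against control it did not pass (log2 0.10, 95% interval -0.24 to 0.45). The fitted rise of Vegfc was larger than that of Vegfa, a difference that was not tested. Vegfa had 11.02 and 10.7 counts for each Vegfc count in 4T1 medium, 21.2 and 22 in 67NR medium and 22.9 and 22.04 in control medium.

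Vegfb and Pgf encode ligands that bind VEGFR1, the product of Flt1, and not VEGFR2. Vegfb (chromosome 19, 6982473 to 6987651, minus strand) was at 30.3 and 32.2 CPM in 4T1 medium, 39.3 and 36.5 CPM in 67NR medium and 38.6 and 36.3 CPM in control medium. Both 4T1 libraries lay below the other 4, and 67NR and control overlapped. Vegfb was 1.20-fold lower in 4T1 than in control medium (log2 -0.26, SE 0.08, edgeR quasi-likelihood adjusted p = 0.0276) and fell by 0.28 on the log2 scale in 4T1 against 67NR medium. The first call ended without 4T1 replicate 1, without either control library and with DESeq2, at adjusted p = 0.0574 to 0.176 (range over the alternatives 0.0197 to 0.176). The second ended without 67NR replicate 1 (adjusted p = 0.156, range 0.011 to 0.156). For 67NR against control the log2 fold change was 0.02 (95% interval -0.16 to 0.19).

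Pgf (chromosome 12, 85166635 to 85177790, minus strand), the placental growth factor gene, had 7 and 4 counts in 4T1 medium, 43 and 38 in 67NR medium and 32 and 14 in control medium. These were 0.473 and 0.218 CPM in 4T1 medium, 1.99 and 1.85 CPM in 67NR medium and 1.66 and 1.04 CPM in control medium. The 4T1 libraries were lowest and the 67NR libraries highest, with no overlap. Pgf fell in 4T1 against control medium (log2 -2.04, SE 0.47, edgeR quasi-likelihood adjusted p = 0.00409) and against 67NR medium (log2 -2.50, SE 0.43), while 67NR against control did not pass (log2 0.46, 95% interval -0.24 to 1.16). The first call ended without control replicate 1 (adjusted p = 0.0748, range 4.22e-05 to 0.0748), where the spread of the single control library left is taken from the other media, as in every fit that leaves a medium with 1 library. Without 4T1 replicate 1 both falls were larger, at log2 -2.65 against control and -3.11 against 67NR medium, and without 4T1 replicate 2 they were smaller, at log2 -1.55 and -2.01.

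Flt1 (chromosome 5, 147561604 to 147726011, minus strand) encodes VEGFR1, which in its soluble form traps VEGF-A, VEGF-B and placental growth factor. It was at 4.73 and 4.09 CPM in 4T1 medium, 10.4 and 9.25 CPM in 67NR medium and 10.5 and 13.5 CPM in control medium. The 4T1 libraries were lowest, and the 67NR libraries lay just below control without overlap. Flt1 was 2.71-fold lower in 4T1 than in control medium (log2 -1.44, SE 0.17, edgeR quasi-likelihood adjusted p = 2.22e-05) and 2.24-fold lower in 4T1 than in 67NR medium (log2 -1.17, SE 0.17). For 67NR against control it did not pass (log2 -0.27, 95% interval -0.59 to 0.04).

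**Figure D2:**
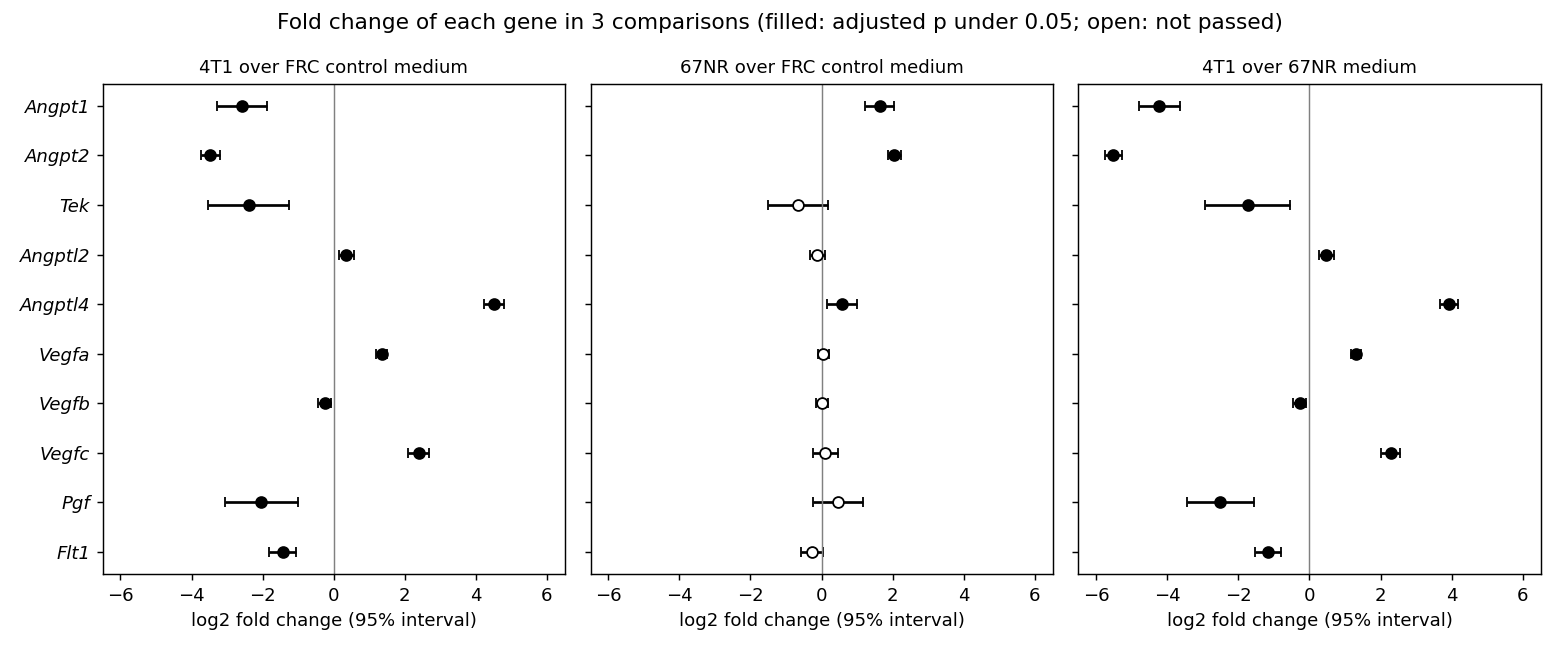
Log2 fold change of each gene with its 95% interval for 4T1 over control, 67NR over control and 4T1 over 67NR medium, from the edgeR fit of all 6 libraries, with filled points at an adjusted p under 0.05. All 10 points are filled in both comparisons of 4T1 medium, and Angpt1 and Angpt2 change sides between 4T1 and 67NR against control, at -2.59 and -3.47 for 4T1 and at 1.64 and 2.05 for 67NR.

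Promoter sequence is shown for Vegfa and Vegfc, the VEGF ligands that rose in 4T1 medium, and for the receptor gene Flt1, which fell. The RefSeq promoter table (GRCm38.p6) matched 7 of the 10 genes, with 9 promoters, and the 250 bases before each start were searched on both strands. Promoters of Angpt1, Angpt2 and Angptl4 are named only. Vegfa lies at chr17:46032378-46032627 (minus strand), Vegfc at chr8:54077282-54077531 (plus strand) and Flt1 at chr5:147726012-147726261 (minus strand). Capitals mark matches to the motifs given next, and the Vegfa window holds none.
Vegfa: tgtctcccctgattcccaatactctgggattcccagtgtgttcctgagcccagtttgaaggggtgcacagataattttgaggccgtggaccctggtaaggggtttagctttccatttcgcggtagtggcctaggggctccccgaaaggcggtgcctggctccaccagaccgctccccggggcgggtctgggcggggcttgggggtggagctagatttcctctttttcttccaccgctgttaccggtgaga
Vegfc: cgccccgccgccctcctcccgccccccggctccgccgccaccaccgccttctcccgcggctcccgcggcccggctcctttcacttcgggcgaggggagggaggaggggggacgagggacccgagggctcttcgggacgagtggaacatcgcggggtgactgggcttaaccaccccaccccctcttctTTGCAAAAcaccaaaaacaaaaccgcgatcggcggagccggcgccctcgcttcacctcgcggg
Flt1: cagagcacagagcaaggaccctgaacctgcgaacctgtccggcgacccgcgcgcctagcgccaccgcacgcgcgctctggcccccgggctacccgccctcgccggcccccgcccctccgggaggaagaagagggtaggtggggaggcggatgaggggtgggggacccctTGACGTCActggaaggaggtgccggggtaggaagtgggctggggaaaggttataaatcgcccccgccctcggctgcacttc

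The motifs searched were the hypoxia response element core ACGTG, the AP-1 site TGANTCA, the cyclic AMP response element TGACGNCA, the C/EBP site TTGCNNAA, the NF-kB site and the STAT site TTCNNNGAA. The Vegfc window holds one C/EBP match 63 bases before the start, and 9.56% of 32851 promoter windows of this length hold one. The Flt1 window holds one cyclic AMP response element, on both strands, 81 bases before the start, as do 2.75% of all windows. A second Vegfa start inside the gene has a hypoxia core 211 bases before it, as do 16.6% of all windows. AP-1 (6.75% of all windows), NF-kB (0.356%) and STAT (7.02%) letters were in none of the 9 windows. A match is a description of letters and not of binding.

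Levels can be compared between genes only per length, here as CPM per kilobase of annotated exon. In 4T1 medium Vegfa led the 10 genes at 52.1 ± 1.04, followed by Vegfb at 19.5 ± 0.836, Angptl4 at 12.8 ± 0.692, Angptl2 at 9.34 ± 1.16 and Vegfc at 8.39 ± 0.00375 (mean ± SD, n = 2, CPM per kilobase). Below them came Angpt2 at 0.891, Flt1 at 0.326, Angpt1 at 0.126, Pgf at 0.119 and Tek at 0.0389. In 67NR medium Angpt2 led at 40.6 ± 0.372, before Vegfb at 23.6 ± 1.25, Vegfa at 21.1 ± 0.198, Angptl2 at 6.73 ± 0.503 and Angpt1 at 2.40 ± 0.103. Vegfc, Angptl4, Flt1, Pgf and Tek followed, at 1.71, 0.837, 0.728, 0.662 and 0.131. In control medium the order was Vegfb at 23.3 ± 1.02, Vegfa at 20.4 ± 1.29, Angpt2 at 9.76 ± 0.808, Angptl2 at 7.31 ± 0.683 and Vegfc at 1.59 ± 0.0598. Flt1, Angpt1, Angptl4, Pgf and Tek came last, at 0.891, 0.747, 0.559, 0.465 and 0.210. Neighbours whose libraries overlapped were Angpt1 and Pgf in 4T1 medium, Flt1 and Pgf in 67NR medium, and Flt1 with Angpt1, Angpt1 with Angptl4 and Angptl4 with Pgf in control medium.

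The gene with the highest level among all VEGF ligands was not among the 10. Vegfd, a ligand of VEGFR3 as is VEGF-C, stood at 189 ± 4.71 CPM per kilobase in 4T1 medium, 245 ± 14.0 in 67NR medium and 226 ± 15.4 in control medium. It fell slightly in 4T1 against control medium (log2 -0.26, edgeR quasi-likelihood adjusted p = 0.0117). Of the length-scaled sum of Vegfa, Vegfb, Vegfc, Vegfd and Pgf, Vegfd made up 69.8 and 70.7% in 4T1 medium, 83.0 and 84.7% in 67NR medium and 81.9 and 84.3% in control medium. Vegfa made up 19.9 and 18.9% in 4T1 medium, 7.52 and 6.98% in 67NR medium and 8.12 and 6.95% in control medium. The share of Vegfc was 3.15 and 3.08% in 4T1 medium, 0.622 and 0.555% in 67NR medium and 0.622 and 0.551% in control medium.

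**Figure D3:**
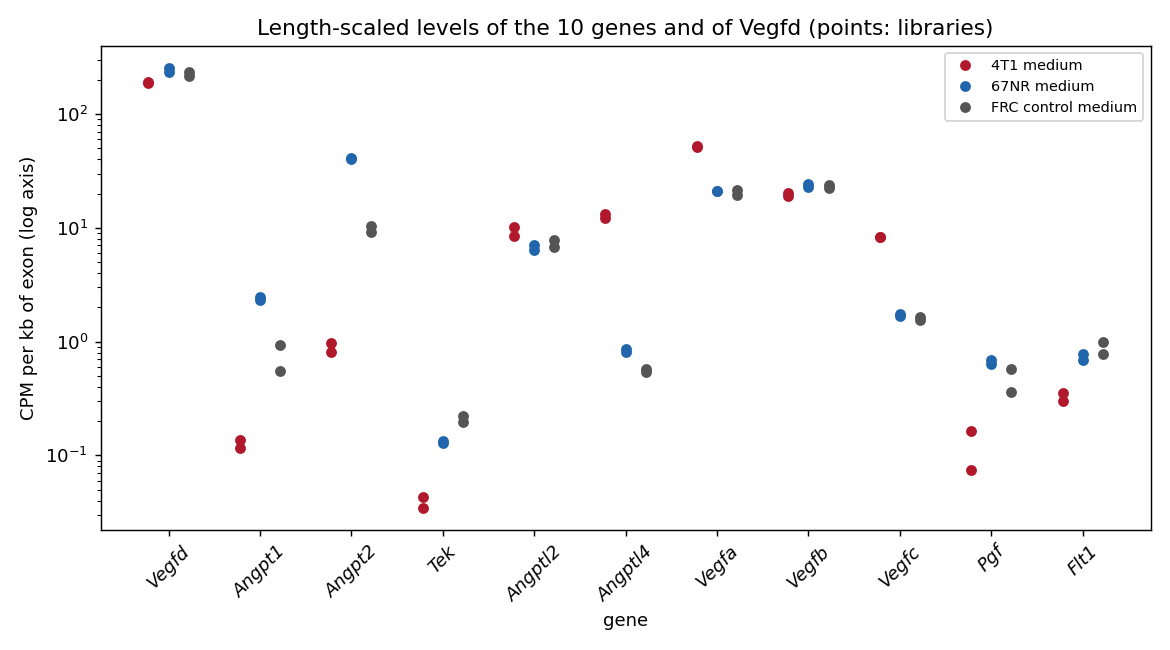
Length-scaled level, in CPM per kilobase of exon on a log axis, of Vegfd and of the 10 genes in 4T1, 67NR and FRC control medium, with 1 point per library. Vegfd lies above all 10 genes in every library, and Angpt2 moves between 0.891 in 4T1 medium, 40.6 in 67NR medium and 9.76 in control medium.

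The other receptors were followed as well. Kdr, which encodes the main signalling receptor VEGFR2, had 1 and 0 counts in 4T1 medium, 32 and 28 in 67NR medium and 16 and 22 in control medium. Its ratio of 4T1 to control medium at TMM-scaled totals was 0.0260 (95% counting interval 0.000641 to 0.154), and of 67NR to control medium 1.23 (0.803 to 1.89). Flt4, the VEGFR3 gene, had 7 and 11 counts in 4T1 medium, 14 and 12 in 67NR medium and 11 and 6 in control medium, and passed no test. The fitted falls of Kdr in 4T1 medium passed (edgeR quasi-likelihood adjusted p = 0.000468 against control and 0.000138 against 67NR). The neuropilins, co-receptors that also bind semaphorins, had the highest levels of these receptors per kilobase, at 10.0 for Nrp1 and 4.04 for Nrp2 in 4T1 medium and 16.6 and 12.7 in control medium. Nrp2 was at 47.5 and 48.2 CPM in 4T1 medium, 152 and 165 CPM in 67NR medium and 151 and 149 CPM in control medium, a fall in 4T1 against control of 1.65 on the log2 scale. Nrp1 was at 85.8 and 110 CPM in 4T1 medium, 205 and 194 CPM in 67NR medium and 166 and 160 CPM in control medium. It fell in 4T1 against control medium (log2 -0.73, edgeR quasi-likelihood adjusted p = 5.44e-05) and rose in 67NR against control medium (log2 0.29, edgeR quasi-likelihood adjusted p = 0.0319). With Flt1 and Tek, 5 of 6 tested receptor and co-receptor genes were lower in 4T1 than in control medium, beside 19.2% of all tested genes, and Flt4 did not pass. The receptor gene Tie1 had too few counts to test.

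Of the other family members, Angpt4, the third TIE2 ligand, rose in 4T1 medium to 2.77 and 2.83 CPM, against 0.831 and 0.966 CPM in control medium (log2 1.65, edgeR quasi-likelihood adjusted p = 0.000765). Angptl6 rose likewise to 10.5 and 8.39 CPM, against 2.80 and 1.78 CPM in control medium (log2 1.98). In 67NR medium they were at 0.880 and 0.730 CPM (Angpt4) and 3.10 and 2.48 CPM (Angptl6), and neither passed against control. Angptl8 had 10 counts in 4T1, 2 in 67NR and 1 in control medium, and Tie1, the orphan partner of TIE2, had 3, 2 and 1. Angptl7 had 1 count in 4T1, 2 in 67NR and 2 in control medium, and Angptl1 had 0 in all 6 libraries. A count of 0 allows up to 3 counts per library.

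Genes with the pattern most like each of the 10 were sought among tested genes that averaged at least 5 CPM, by the root mean square difference in log2 CPM over the 6 libraries after centring each gene. The 11280 other genes were ranked for each of the 8 genes that reached this level, which leaves out Tek and Pgf. Vegfc lay nearest to the neutrophil chemokine gene Cxcl1 (difference 0.05, beside a range of 2.40 for Vegfc itself) and then to Cebpb, a transcription factor gene of the inflammatory response, and Lhfpl2 (0.08 each). Vegfa lay nearest to Casp12, Nr4a2 and Marchf3 (0.05, 0.07 and 0.07, range 1.44), and Angptl4 to Rgs16, Aldh3a1 and P2rx3 (0.08, 0.12 and 0.19, range 4.53). The nearest genes lay further from the angiopoietins in log2 units, a distance that does not allow for their wide ranges. In 4T1 medium Angpt1 had only 9 and 13 counts, so counting error adds to its distance. Angpt1 lay nearest to Tmtc1, Aoc3 and Plxdc2 (0.34, 0.38 and 0.38, range 4.18), and Angpt2 to Tmem252, Plxdc2 and Pgm5 (0.33, 0.36 and 0.40, range 5.60). Flt1 lay nearest to Nacad, Tubb2a and Tspan12 (0.10, 0.11 and 0.12, range 1.70), Angptl2 to Bnip3, Psmg4 and E130309D02Rik (0.05 each, range 0.67) and Vegfb to Mapk3, Ncoa4 and Supt5 (0.03 each, range 0.37). In CPM, Cxcl1 stood at 424 and 454 in 4T1, 93.5 and 88.7 in 67NR and 80.5 and 79.6 in control medium.

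Hypoxia-inducible factors are the textbook inducers of Vegfa and, with PPAR receptors, of Angptl4. Of 20 tested genes of hypoxia, Vegfa left out, 7 were higher and 4 lower in 4T1 than in control medium, with a median log2 fold change of 0.13. For this and the later lists, the shares of all tested genes were 19.9% higher and 19.2% lower for 4T1 against control. They were 13.0% and 14.6% for 67NR against control, and 23.5% and 19.9% for 4T1 against 67NR. Hif1a, the alpha subunit gene, rose to 576 and 658 CPM in 4T1 medium, against 189 and 209 CPM in control medium (log2 1.63). The related Epas1 rose by 1.58 on the log2 scale, and the HIF targets were split. Ankrd37 fell by 1.72, Adm by 1.48, P4ha1 by 0.69 and Ndrg1 by 0.49. Pfkfb3 rose by 1.02, Slc2a1 by 0.71, Ddit4 by 0.49 and Pdk1 by 0.30. Of the 20 genes 9 did not pass, among them Ldha (log2 0.04) and Pgk1 (-0.01). P4ha1, Ndrg1, Slc2a1, Ddit4, Pdk1, Ldha and Pgk1 are named for this comparison after their values were seen. Of 12 tested PPAR genes and targets, 3 were higher and 5 lower (median log2 -0.13). The PPAR target Pdk4, which encodes a brake on glucose oxidation, rose by 0.42, and Acaa2, an enzyme gene of fatty acid oxidation, fell by 0.32. Ppard, which encodes PPAR delta, rose by 0.40, and Pparg was at 4.06 and 4.19 CPM in 4T1 medium against 6.23 and 5.50 CPM in control medium, a fall that ended with library totals as the only scaling. For 67NR against control 3 of the 20 hypoxia genes were higher and 3 lower (median log2 -0.03), with Epas1 and Ndrg1 higher and Ankrd37 and the lactate dehydrogenase gene Ldha lower. The PPAR list had 1 of 12 higher there, the PPAR partner gene Rxra (log2 0.41), and the other 11 did not pass. For 4T1 against 67NR 9 of the 20 hypoxia genes were higher and 5 lower (median log2 0.27). Ldha (log2 0.88) and Pgk1 (0.68), named after their values were seen, were higher, and Adm (-1.46) and Ndrg1 (-1.27) lower. Of the 12 PPAR genes 2 were higher and 7 lower in this comparison (median log2 -0.32).

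ATF4, the factor of the amino acid stress response, is another known inducer of Vegfa. Of its 12 list genes 10 were higher in 4T1 than in control medium and 2 did not pass (median log2 0.59), led by Cth (log2 2.35), Atf3 (1.70), Trib3 (1.27) and Ddit3 (1.16). In 67NR against control medium 7 were lower and 5 did not pass (median log2 -0.36), among them Slc7a11 (log2 -0.48), Psat1 (-0.47), Cth (-0.43) and Asns (-0.41). All 12 were higher in 4T1 than in 67NR medium. Whether hypoxia-inducible factors, PPAR receptors or ATF4 had a part in the changes of Vegfa and Angptl4 was not tested.

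Lipoprotein lipase, on which ANGPTL4 acts, was itself scarce. Lpl was at 1.28 and 1.42 CPM in 4T1 medium, 0.371 and 0.535 CPM in 67NR medium and 0.571 and 0.669 CPM in control medium, a rise in 4T1 against control of 1.14 on the log2 scale (edgeR quasi-likelihood adjusted p = 0.0339). Of 7 tested lipase genes and partners 2 were higher and 1 lower in 4T1 than in control medium, with median log2 fold changes of 0.04 both there and in 67NR medium. The receptor gene Vldlr rose by 0.61, and Sel1l, which encodes a factor of lipase maturation, fell by 0.42. The lipase anchor Gpihbp1 and the fatty acid transporter Cd36 had 0 counts in all 6 libraries.

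Among 9 tested genes of VEGF cleavage and release, 3 were higher and 2 lower in 4T1 than in control medium (median log2 0.16). Furin, a convertase that cuts VEGF-C, rose by 0.52 and the heparanase gene Hpse by 1.31, while Ccbe1, the cofactor of VEGF-C maturation, was at 0.541 and 1.09 CPM against 2.13 and 2.38 CPM and fell by 1.41. The urokinase gene Plau fell by 0.62. Adamts3, the protease that CCBE1 assists, had 0 counts in all 6 libraries. In 67NR medium 5 of 9 were higher and 4 did not pass (median log2 0.32), with the metalloprotease genes Mmp14 and Mmp2 up by 0.79 and 0.68 and Mmp9 at 1.53 and 1.27 CPM against 0.208 and 0.0743 CPM in control medium.

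Other ligands that promote vessel growth, secreted or, as Jag1, Efnb2 and Efna1, bound to the membrane, were split, with 6 of 16 higher and 6 lower in 4T1 than in control medium (median log2 0.27). Il6 (log2 5.33), the hepatocyte growth factor gene Hgf (4.51) and the apelin gene Apln (1.83) rose, and Ccn2 fell by 1.87. Hgf had 91 and 121 counts in 4T1, 26 and 23 in 67NR and only 7 and 2 in control medium, so its fold changes are imprecise. Of 11 inhibitors of vessel growth 4 were higher and 6 lower (median log2 -0.45). Thbs1, which encodes thrombospondin 1, fell to 381 and 500 CPM in 4T1 medium, against 5194 and 5359 CPM in control medium (log2 -3.58), and Sema3a, a ligand of neuropilin 1, fell by 2.63, while Thbs2 rose by 1.18. In 67NR against control medium 1 of 16 promoting ligands was higher and 5 were lower, and 3 of 11 inhibitors were higher and 3 lower. Hgf (2.06) and Thbs2 (1.22) rose there on the log2 scale as well.

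**Figure D4:**
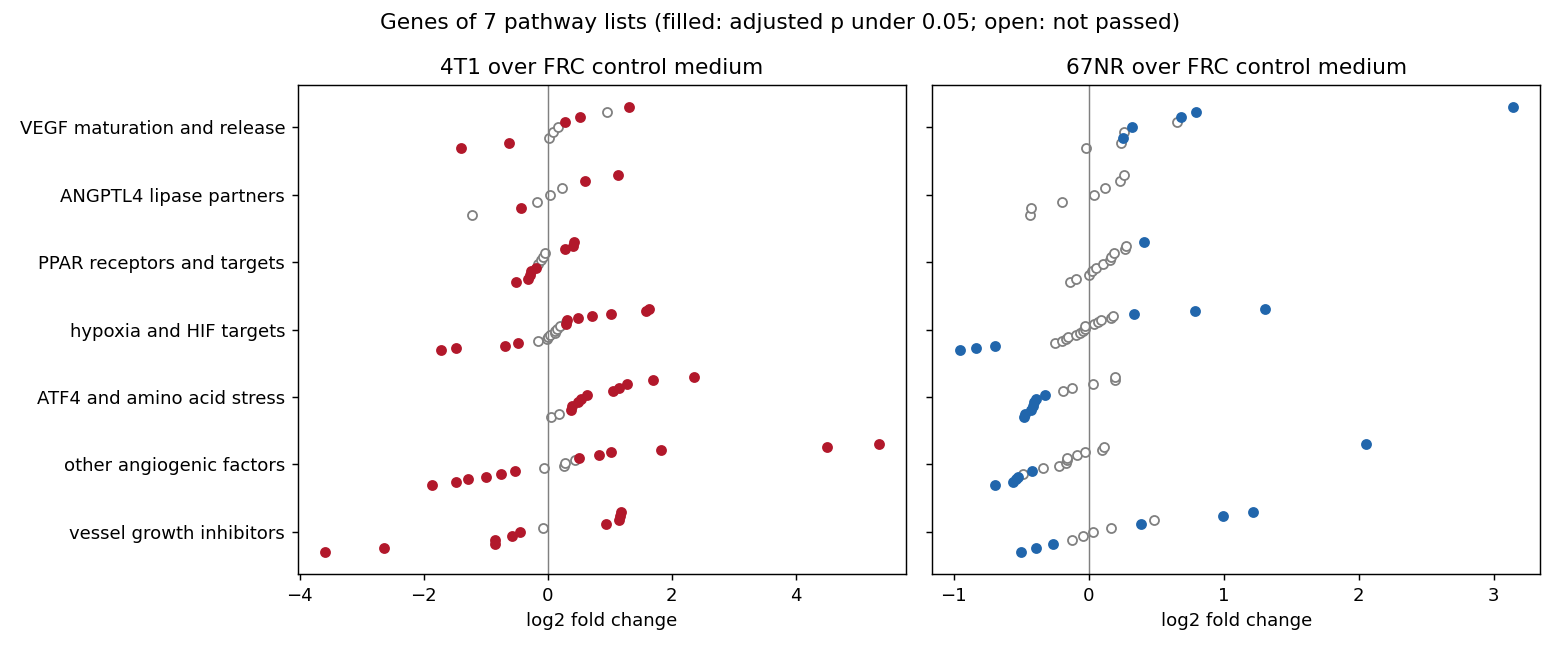
Log2 fold change of each tested gene in 7 lists around the 10 genes, for 4T1 over control (left) and 67NR over control medium (right), with filled points at an adjusted p under 0.05 and different scales on the 2 axes. In the ATF4 list 10 of 12 points are filled and above 0 for 4T1, and 7 of 12 are filled and below 0 for 67NR. Over all tested genes 19.9% were higher for 4T1 and 14.6% lower for 67NR against control.

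Tek, Flt1 and Kdr are best known from endothelium, so markers of other cells were counted. Of 12 endothelial markers, Cldn5, Erg, Prox1 and Mmrn1 had 0 counts in all 6 libraries, and Cdh5 had 0 and 2 counts in 4T1 medium, 6 and 1 in 67NR medium and 2 and 4 in control medium. The summed level of the 12 was 36.0 to 37.2 CPM in 4T1, 23.1 to 26.5 CPM in 67NR and 13.5 to 14.7 CPM in control medium, nearly all of it Emcn, which rose (log2 1.49 for 4T1 against control). Pecam1 had 9 and 9 counts in 4T1, 19 and 18 in 67NR and 9 and 5 in control medium. Egfl7 had 24 and 23, 39 and 25, and 17 and 16 in the same order, and neither gene passed a comparison. Lyve1 (2, 18 and 3 counts in 4T1, 67NR and control medium), Vwf (9, 5 and 6) and Esam (6, 2 and 1) were not tested. Leukocyte markers summed to 5.07 to 5.39 CPM in 4T1, 11.6 to 12.6 CPM in 67NR and 7.06 to 8.47 CPM in control medium. Lyz2 was the largest single part in every library. Lyz2, the lysozyme gene, fell in 4T1 (log2 -1.33, edgeR quasi-likelihood adjusted p = 0.000248) and rose in 67NR against control medium (log2 0.80, edgeR quasi-likelihood adjusted p = 0.00256), the directions of Angpt1 and Angpt2. Of the other leukocyte markers, Ptprc was at 1 count in 1 library and at 0 in the other libraries, and Adgre1, Cd3e and Tyrobp were at 0. Csf1r had 26 and 31 counts in 4T1, 52 and 43 in 67NR and 38 and 20 in control medium. Cd68 had 19 and 20, 20 and 13, and 8 and 14 in the same order, and neither gene passed a comparison. Fcer1g, with 10 counts in 4T1, 3 in 67NR and 1 in control medium, was not tested. Epithelial markers summed to 0.654 to 1.83 CPM in 4T1, 2.32 to 2.53 CPM in 67NR and 2.75 to 3.11 CPM in control medium, with Epcam, Cldn4 and Esrp1 at 0 and Cdh1 lower in 4T1 than in control medium (log2 -2.74). Lyz2, Notch3, Myh11, Cspg4, Mcam and Cdh1 are named after their values were seen. So are Pecam1, Egfl7, Lyve1, Vwf, Esam, Csf1r, Cd68 and Fcer1g. Pericyte and adipocyte markers summed to 243 to 276 CPM in 4T1, 267 to 275 CPM in 67NR and 227 to 234 CPM in control medium, with Adipoq, Plin1 and Lep at 0. Nearly all of this sum was Notch3, which rose slightly in both tumour media (log2 0.24 for 4T1 and 0.27 for 67NR against control). Myh11, a smooth muscle myosin gene, was at 0.541 and 0.327 CPM in 4T1, 4.22 and 3.89 CPM in 67NR and 1.14 and 2.23 CPM in control medium. It fell in 4T1 (log2 -1.91) and rose in 67NR against control medium (log2 1.33), as Lyz2 did. Cspg4 fell in both (log2 -1.60 and -0.62), and Mcam fell in 67NR medium (log2 -0.91).

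Of 12 FRC and lymph node stroma genes, 6 were tested, of which Pdgfra, Vcam1 and Ltbr rose and Pdgfrb and Pdpn fell in 4T1 against control medium. In 67NR against control medium Pdgfra and Pdgfrb rose and Pdpn fell. Thy1, Ccl19, Ccl21a and Cxcl13, of which Ccl19 and Ccl21a are defining chemokine genes of FRCs in lymph nodes, had 0 counts in all 6 libraries. Ccl21a has near-identical copies, so its count is uncertain. Mitochondrial transcripts took 2.11 and 2.37% of counts in 4T1, 1.96 and 2.28% in 67NR and 1.32 and 1.87% in control medium. Of 8 tested RNA quality genes, 5 were higher in each tumour medium than in control, and 1, mt-Rnr2, was lower in 4T1 medium (log2 -0.89). The nuclear RNA Neat1 stood at 382 and 360 CPM in 4T1, 181 and 160 CPM in 67NR and 127 and 136 CPM in control medium. The part of these markers and RNAs in the changes of the 10 genes was not tested.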

How the data were processed

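Poly(A) RNA (500 ng of total RNA, directional libraries, Illumina NextSeq500) was sequenced, per the labels' protocols. The deposited counts are whole reads per gene symbol, in an unfiltered table, used here, and a filtered table of 14629 genes with the same values. Subread, DESeq2 1.32.0 and mm10 are named in the submitters' processing notes. No source used here gives the aligner or whether counting used strand. With edgeR 4.0.16 in R 4.3.3, filterByExpr kept genes (count minimum 10, total minimum 15) and TMM scaled the libraries. A quasi-likelihood fit of all 6 libraries gave log2 fold changes, F tests and Benjamini-Hochberg adjusted p over 15055 genes. SE is the absolute log2 fold change over the square root of F. Gene positions and exon lengths come from GENCODE M21 (GRCm38, the assembly of mm10), which held 53292 of 55367 symbols. Alternatives used limma 3.58.1 (voom), DESeq2 1.42.0, other scalings and filters, a replicate block and each library left out. The code was tested on simulated data. Figures used matplotlib 3.10.9.

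The 10 genes, the lists and the motifs were chosen with earlier results of these data known. All 10 genes are named. From each list, genes that passed the test and reached 1 CPM in a medium were eligible, up to 4 per comparison by size of change, and the text names part of them. Receptors and other family genes with a count are named, as are marker genes at 0, except for 2 genes that are not reported here.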

Additional observations from a re-analysis of the deposited data

Results flagged for a closer look

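Angpt1 and Angpt2 moved in opposite directions in the tumour media, lower in 4T1 and higher in 67NR medium, both past the threshold against the shared control. The difference itself was tested as 4T1 against 67NR, with log2 fold changes of -4.22 for Angpt1 and -5.52 for Angpt2 (edgeR quasi-likelihood adjusted p = 4.58e-08 and 1.18e-12, n = 2 per medium). Over all lists, marker lists included, 12 further genes passed all 3 comparisons with opposite directions. How many of all tested genes do so was not counted, so how unusual this is was not tested. Of all tested genes, 39.1% passed for 4T1 against control, 27.6% for 67NR against control and 43.4% for 4T1 against 67NR. Nrp1 (log2 -1.02 for 4T1 against 67NR), Ndrg1 (-1.27), Pdgfrb (-1.21), Lyz2 (-2.13) and Myh11 (-3.24) were lower in 4T1 and higher in 67NR medium. Cth (2.78), Psat1 (1.01), Asns (0.79), Atf4 (0.81), Chac1 (1.03), Apln (2.35) and Hbegf (1.72) were higher in 4T1 and lower in 67NR medium.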

How the results depend on the processing

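Under 15 alternatives each, the counts of the 10 genes past the threshold stayed within 1.5 times, with 4 to 6 lower and 3 to 4 higher for 4T1 against control, 2 to 3 higher for 67NR against control, and 4 higher and 4 to 6 lower for 4T1 against 67NR. Single log2 fold changes kept their direction in every alternative but 3, all of 67NR against control and none past the threshold. These were Vegfb at -0.038 without 67NR replicate 1 and -0.026 without control replicate 2, in a range of -0.038 to 0.069, and Vegfa at -0.015 without control replicate 2, in a range of -0.015 to 0.11. Calls ended in 21 cases, for Angptl2, Angptl4, Tek, Vegfb and Pgf, beside whose values they are given. Over all genes, leaving out 1 library gave 1043 to 2497 genes higher and 1184 to 2840 lower for 67NR against control, where the fit of all libraries gave 1951 and 2199. For 4T1 against control it gave 1891 to 2931 higher, against 2995. No scaling changed the direction of a called list gene. The replicate number as a block (replicate block) changed no call of the 10 genes and gave 3091 genes higher and 2966 lower for 4T1 against control, 2063 and 2319 for 67NR against control, and 3618 and 3050 for 4T1 against 67NR. The deviations of same-numbered libraries correlated at -0.04 to 0.07 across genes. Such a correlation can miss a factor that acts on few genes, so it does not settle whether they share more than a number. The mitochondrial percentage was higher in replicate 2 than in replicate 1 of every medium, at 2.37 against 2.11 in 4T1, 2.28 against 1.96 in 67NR and 1.87 against 1.32 in control medium. Depth limits Tek, Pgf and Kdr, and Angpt1 in 4T1 medium, which rest on 22 counts or fewer there. It also limits Hgf, with 9 counts in control medium.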
